A study of Homo sapiens with 6 samples.

Results

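The 10 genes of the integrated stress response described here are the kinases EIF2AK3 (PERK) and EIF2AK4 (GCN2), the transcription factors ATF4, ATF5, ATF3, DDIT3 (CHOP), CEBPB and CEBPG, and the feedback genes TRIB3 and PPP1R15A (GADD34). They were taken by symbol from the 60617 Ensembl gene rows of the deposited table, as a set of named genes put together with earlier results of these data known. All 10 symbols matched 1 row each, and all 10 passed the filter on low counts, as did 17223 genes in all.

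The integrated stress response lets a cell slow protein synthesis in general while it makes more of a few stress proteins. Stress-sensing kinases add a phosphate to the alpha subunit of the translation factor eIF2, which limits new rounds of initiation. The messenger RNA of ATF4 escapes that limit through upstream reading frames, so ATF4 protein can rise with no change in its RNA. ATF4 and its partner factors then raise the RNA of further transcription factors, amino acid genes and a feedback arm that removes the phosphate.

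The series profiled RNA of NCI-H1299, an established human cell line labelled lung adenocarcinoma, and its design text names a possible nucleolar role of FuHsi as the question. The labels give 3 control libraries (genotype WT, Puro in the titles) and 3 libraries with FuHsi knocked down (Sh1 in the titles), grown in the same medium with serum. Neither Puro nor Sh1 is explained, no drug or time is given, and the cells come from 1 line with 1 knockdown arm. An effect of lost FuHsi therefore cannot be told apart from any other effect of that arm, and the level of FuHsi itself is not analysed here. Nothing says that the replicates came from separate cultures, so each p-value covers just the spread among these libraries, and that spread may be technical. Every control library (30735547 to 34306849 counts) was deeper than every knockdown library (24231515 to 27900051). KRT8 and KRT18, keratins of simple epithelia, were abundant in all libraries, with KRT8 lower in knockdown by 0.63 log2 units and KRT18 not called. Of the mesenchymal markers, VIM fell by 0.70 (from 1366 to 839 CPM) and FN1 rose by 0.93 on the log2 scale, and CDH2 was not called. The part of these shifts in the results was not tested. The lung lineage markers NKX2-1, NAPSA, SFTPB and SFTPC reached at most 20 counts in any library and SFTPC was at 0 in all 6. NAPSA was called higher in knockdown, with 0 to 4 counts per control library and 11 to 20 per knockdown library. EPCAM, CDH1 and a further keratin, KRT19, which mark epithelial cells, reached at most 14, 8 and 16 counts and did not pass the filter. Markers of other cell types summed to 5.35 to 5.57 CPM in control and 4.33 to 6.25 CPM in knockdown, where CPM is a gene's count scaled to a common library size. Among these markers PTPRC was called higher, with 4 to 16 counts per control library and 14 to 25 per knockdown library.

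Promoter stretches of 4 of the genes that changed are shown first because ATF4, C/EBP and related factors bind DNA of known letters. The stretches lie in windows that RefSeq places from 250 bases before to 50 bases after a transcription start (build GRCh38.p14), and they were limited to bases outside the gene's own annotated exons. Capitals mark the only match to the motif named. TGATGNAA is the core of the C/EBP-ATF response element bound by ATF4 with C/EBP partners. TGACGTCA is the cAMP response element, and TGANTCA is the AP-1 site. All were searched on both strands.
DDIT3, chr12:57520518-57520764, minus strand, TGANTCA in capitals: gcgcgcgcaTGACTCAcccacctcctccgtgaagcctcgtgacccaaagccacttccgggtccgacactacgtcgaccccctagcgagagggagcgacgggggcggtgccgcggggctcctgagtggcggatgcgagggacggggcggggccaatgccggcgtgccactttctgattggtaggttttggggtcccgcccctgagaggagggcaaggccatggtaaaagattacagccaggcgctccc
ATF3, chr1:212565157-212565333, plus strand, TGATGNAA in capitals: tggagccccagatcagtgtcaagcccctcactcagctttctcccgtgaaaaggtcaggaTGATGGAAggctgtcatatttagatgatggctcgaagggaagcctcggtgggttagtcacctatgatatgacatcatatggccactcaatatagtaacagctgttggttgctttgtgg
CEBPG, chr19:33373896-33374112, plus strand, TGATGNAA in capitals: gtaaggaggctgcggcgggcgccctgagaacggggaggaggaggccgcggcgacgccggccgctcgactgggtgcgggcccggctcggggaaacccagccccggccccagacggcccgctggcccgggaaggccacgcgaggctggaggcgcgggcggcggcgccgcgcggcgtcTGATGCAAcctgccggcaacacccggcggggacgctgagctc
PPP1R15A, chr19:48872171-48872391, plus strand, TGACGTCA in capitals: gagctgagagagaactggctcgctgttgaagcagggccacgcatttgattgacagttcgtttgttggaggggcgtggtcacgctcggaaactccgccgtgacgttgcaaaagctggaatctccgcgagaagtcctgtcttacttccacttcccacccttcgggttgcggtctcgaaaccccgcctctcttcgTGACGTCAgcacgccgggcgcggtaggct

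RefSeq windows were found for all 10 genes, 19 windows in all. TGATGNAA was in a window of 2 of the 10 genes, ATF3 and CEBPG, and in a window of 4.46% of the 27305 genes in the RefSeq table (3.62% of its 35116 windows). TGACGTCA was in a window of 1, PPP1R15A, and of 2.25% of all genes (1.85% of windows). TGANTCA was in windows of 3, DDIT3, ATF5 and EIF2AK4, and of 9.37% of all genes (7.71% of windows). No window of ATF4, CEBPB, TRIB3 or EIF2AK3 held any of these letters, and this says only that they are not in these windows. ATF3, CEBPG and DDIT3 have 2 windows each, and counts per gene do not show which start was in use.

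The transcription factors split into those whose RNA was higher in knockdown and those whose RNA did not pass the test. DDIT3, ATF3, CEBPB and CEBPG rose by 6.53, 4.34, 2.04 and 1.36 times, while ATF4 and ATF5 were not called. With the feedback genes TRIB3 and PPP1R15A, which rose by 4.15 and 2.28 times, 6 of the 10 genes were called higher and 0 lower by edgeR's quasi-likelihood test at an adjusted p under 0.05. Over all tested genes, 61.6% were called, 30.7% higher (5295) and 30.9% lower (5317), and with library size alone as the scale 6986 were higher and 3855 lower. That scale raised the median of all genes by 0.15 log2 units and called 9 of the 10 genes higher, adding ATF4, EIF2AK3 and EIF2AK4. Groups did not overlap for 7 of the 10 genes, with knockdown higher in 7 and lower in 0. They did not overlap for 65.3% of all tested genes, with knockdown higher in 33% and lower in 32.3%. At an unadjusted p under 0.05 the number lower was also 0, and DESeq2 called 1 lower, ATF4. Of the 6, 5 were at least 2-fold higher, as were 9.16% of all tested genes, and 0 of the 10 were at least 2-fold lower, as were 3.12% of all. Calls varied with level. With all tested genes cut into 5 equal bins by mean level (bin 5 the highest), the 10 genes lie in bins 3 to 5. In bins 3, 4 and 5, 40.1%, 32.3% and 26.7% of all genes were called higher, and 29%, 45.8% and 60.3% lower. The median log2 fold change of the 10 was 0.74, against 0.03 over all tested genes. Levels are CPM with library factors from TMM (trimmed means of M values), and in bulk RNA a higher level in every cell cannot be told apart from more cells that express the gene.

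**Figure D1:**
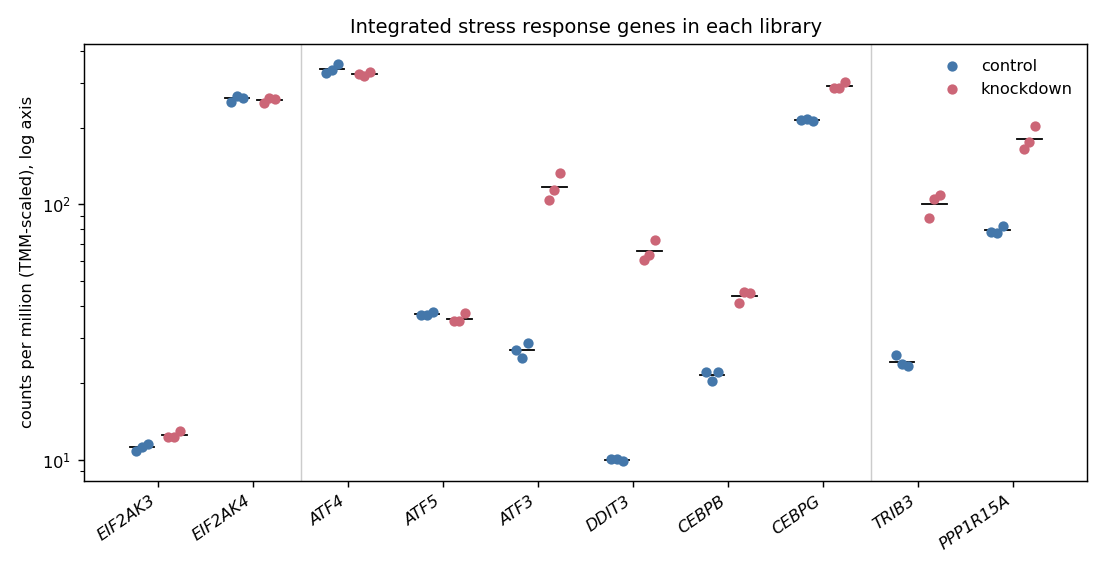
TMM-scaled CPM of each gene on a log axis, with 1 point per library (replicates 1 to 3 from left to right) and a line at the mean of 3. The kinases stand at the left, the transcription factors in the middle and the feedback genes at the right; the 3 knockdown points lie above the 3 control points for DDIT3, ATF3, CEBPB, CEBPG, TRIB3, PPP1R15A and EIF2AK3, and overlap them for ATF4, ATF5 and EIF2AK4.

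ATF4, the activator at the centre of the response, was the most abundant of the 10 per length of transcript. Its gene lies on chromosome 22 (39519695 to 39522685, plus strand, GRCh38). Control libraries held 328, 336 and 355 CPM and knockdown libraries 325, 317 and 332. The groups overlapped, with knockdown replicate 3 inside the control range. The log2 fold change was -0.06 ± 0.03 (SE; 95% interval -0.13 to 0.00295; edgeR, adjusted p = 0.0925). The sign and the call depended on the setting. ATF4 was called lower by DESeq2 (-0.09), without control replicate 1 (-0.10) and without knockdown replicate 3 (-0.09), and called higher with library size alone (0.09). ATF4 protein was not measured.

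ATF5 is a relative of ATF4 whose translation is also controlled by upstream reading frames. It stood at 36.9, 37.01 and 37.9 CPM in control and 34.8, 34.9 and 37.4 CPM in knockdown. The groups overlapped, and the log2 fold change was -0.06 ± 0.06 (SE; 95% interval -0.19 to 0.06; edgeR, adjusted p = 0.394). It turned to 0.09 with library size alone, where it was not called either. ATF5 shares 23.7% of its exonic bases with IL4I1, NUP62 and MIR4751, and NUP62, with 1371 to 4349 counts per library, was lower by 1.22 log2 units. Its count is therefore reported as uncertain.

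DDIT3, a C/EBP-family factor known as CHOP that promotes cell death in lasting stress, had the largest change of the 10. Its gene lies on chromosome 12 (57516588 to 57521737, minus strand). Control libraries held 10.1, 10.02 and 9.90 CPM, and knockdown libraries 60.8, 63.1 and 72.4. The lowest knockdown library was above every control library by far more than the spread within either group. The log2 fold change was 2.71 ± 0.07 (SE; edgeR, adjusted p = 1.76e-38), and 145 of the 17223 tested genes had a larger one. DDIT3 shares 39.6% of its exonic bases with MARS1, MBD6 and an unnamed gene without counts. MARS1 held 9379 to 12384 counts per library and MBD6 1504 to 2191, more than the 286 to 330 of DDIT3 in control. They were higher in knockdown by 0.50 and 0.58 log2 units, and their part in the count of DDIT3 was not tested.

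ATF3 is a stress-induced factor of the same bZIP class that acts downstream of ATF4. It lies on chromosome 1 (212565334 to 212620777, plus strand). It went from 26.98, 25.02 and 28.7 CPM in control to 104, 114 and 132 in knockdown, with no overlap. The log2 fold change was 2.12 ± 0.08 (SE; edgeR, adjusted p = 1.06e-14). Knockdown replicate 3 was the highest library and replicate 1 the lowest of its group.

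CEBPB and CEBPG encode C/EBP factors that pair with ATF4, and CEBPG lacks an activation domain of its own. CEBPB (chromosome 20, 50190734 to 50192689, plus strand) went from 22.02, 20.3 and 22.1 CPM to 40.9, 45.3 and 45.1, a log2 fold change of 1.03 ± 0.07 (SE). CEBPG (chromosome 19, 33373330 to 33382686, plus strand) went from 213, 217 and 212 CPM to 286, 286 and 300.4, a log2 fold change of 0.44 ± 0.03 (SE). Neither gene overlapped between groups. The adjusted p-values were 5.00e-20 for CEBPB and 1.44e-17 for CEBPG by edgeR's quasi-likelihood test. CEBPB shares 11.8% of its exonic bases with CEBPB-AS1, which held 13 to 39 counts per library, while CEBPB held at least 639.

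Both feedback genes were higher. TRIB3 is a pseudokinase that is induced by ATF4 and DDIT3 and restrains ATF4. It lies on chromosome 20 (362835 to 397559, plus strand) and went from 25.6, 23.6 and 23.3 CPM to 88.2, 105 and 108. Its log2 fold change was 2.05 ± 0.06 (SE; edgeR, adjusted p = 1.69e-26). PPP1R15A, the inducible subunit that brings protein phosphatase 1 to eIF2, lies on chromosome 19 (48872392 to 48876057, plus strand). It went from 77.9, 77.5 and 82.5 CPM to 164, 176 and 203, a log2 fold change of 1.19 ± 0.06 (SE; edgeR, adjusted p = 1.63e-11). Neither gene overlapped between groups, and the SD over 3 libraries was wider in knockdown (10.9 and 19.8 CPM) than in control (1.24 and 2.76 CPM).

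Of the kinases, neither member was called. EIF2AK3 senses unfolded protein in the endoplasmic reticulum. It lies on chromosome 2 (88556741 to 88627576, minus strand) and stood at 10.8, 11.2 and 11.5 CPM in control and 12.3, 12.3 and 12.96 in knockdown. Its groups did not overlap, but its log2 fold change of 0.17 ± 0.10 (SE; 95% interval -0.04 to 0.37) did not pass (edgeR, adjusted p = 0.166). It passed the test, at 0.32, when scaled by library size alone. EIF2AK3 shares 15.1% of its exonic bases with EIF2AK3-DT and an unnamed gene.

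EIF2AK4 senses uncharged transfer RNA and stalled ribosomes. It lies on chromosome 15 (39934146 to 40035591, plus strand) and stood at 253, 265 and 262 CPM in control and 249, 262 and 259.6 in knockdown. The groups overlapped, and the log2 fold change was -0.02 ± 0.03 (SE; 95% interval -0.09 to 0.05; edgeR, adjusted p = 0.666). The sign was positive with upper-quartile factors (0.04) and with library size alone, where EIF2AK4 passed the test at 0.14.

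**Figure D2:**
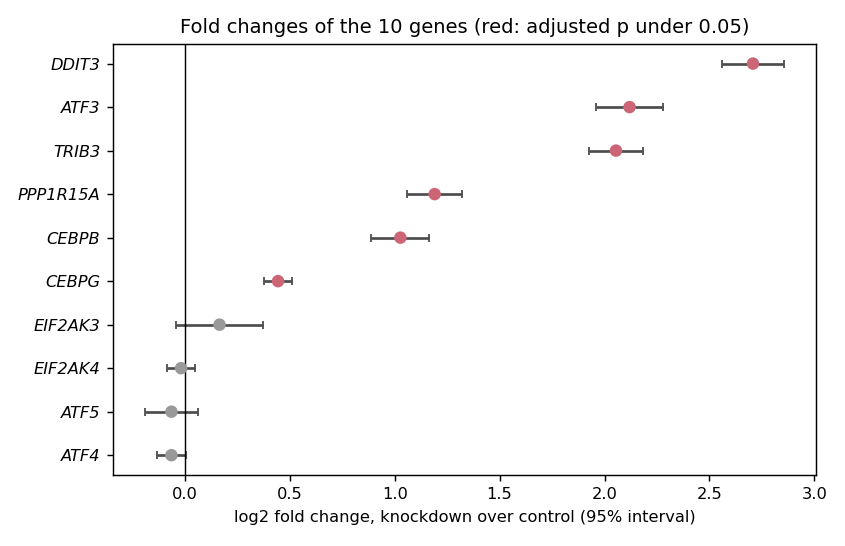
Log2 fold change of each gene, knockdown over control, with its 95% interval from edgeR's quasi-likelihood fit of 3 against 3 libraries; red points had an adjusted p under 0.05. DDIT3, ATF3 and TRIB3 lie beyond 2 on this scale, CEBPG is the smallest called change at 0.44, and the 4 uncalled genes have intervals that include 0.

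The changes altered the order of the genes by level. Per kilobase of exon (RPKM, CPM divided by the length of all annotated exons of the gene), control levels ran from 135 ± 5.65 for ATF4 (mean ± SD, n = 3) to 2.05 ± 0.0653 for EIF2AK3. CEBPG, PPP1R15A, EIF2AK4, ATF5, CEBPB, DDIT3, TRIB3 and ATF3 followed ATF4 in that order. The values of TRIB3 and ATF3 overlapped and those of the other neighbours did not. In knockdown ATF4 was still first at 129 ± 2.88 RPKM and EIF2AK3 last at 2.30 ± 0.0715. DDIT3 moved from the seventh place at 7.65 ± 0.0744 to the fourth at 50.05 ± 4.70, where it overlapped PPP1R15A at 58.5 ± 6.40. PPP1R15A in turn overlapped CEBPG at 65.99 ± 1.84. The length of DDIT3 includes the 39.6% of its exonic bases shared with other genes. How reads in shared bases were counted is not given, so the place of DDIT3 is uncertain. TRIB3 (29.3 ± 3.17) and ATF3 (28.9 ± 3.47) both passed EIF2AK4 (21.5 ± 0.576), which overlapped CEBPB (22.4 ± 1.26). Together the 10 genes held 0.0957% to 0.0982% of all counts in the control libraries and 0.145% to 0.158% in knockdown.

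The 3 knockdown libraries were not equally high. Knockdown replicate 3 had the highest CPM of the 3 for 5 of the 6 genes called higher, and replicate 2 for CEBPB. It was also the highest for 49.9% of the 1577 genes called at least 2-fold higher. Without this library the log2 fold changes were 2.62 for DDIT3, 2.02 for ATF3, 1.99 for TRIB3, 1.09 for PPP1R15A, 1.03 for CEBPB and 0.41 for CEBPG, and all 6 were still called.

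Ratios of gene pairs within a library do not depend on how libraries are scaled, so they were compared between groups for 10 pairs. With 3 libraries against 3, the smallest p that the exact permutation test can give is 0.10, so no pair can pass 0.05. DDIT3 per ATF4, per length, went from 0.0568 in control to 0.387 in knockdown (geometric means), 6.81 times as high. ATF3 per ATF4 went from 0.0493 to 0.223. ATF5 per ATF4 was 0.0935 in both groups, with an exact permutation p of 1.00. That ratio is as uncertain as the count of ATF5, which shares exonic bases with NUP62. CEBPB per CEBPG went from 0.226 to 0.339, and TRIB3 per DDIT3 from 0.918 to 0.585. The levels of the ratios with DDIT3 are uncertain, because DDIT3 shares exonic bases with other genes. PPP1R15A per PPP1R15B, its constitutive counterpart, went from 1.77 to 3.89. The groups did not overlap for any pair but ATF5 per ATF4. Each of those 9 had an exact permutation p of 0.10 (2-sided) and 0.111 after Benjamini-Hochberg adjustment over the 10 pairs. Groups did not overlap for 65.3% of all tested single genes either, and no share over all possible pairs was computed. The pairs were drawn from genes chosen with earlier results known. DDIT3 per ATF4, ATF3 per ATF4 and PPP1R15A per PPP1R15B each set a called gene against an uncalled gene, so their gaps largely restate those calls. The same holds for EIF2AK2 per EIF2AK3, EIF2AK1 per EIF2AK4 and ATF4 per EIF2S1, given below.

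For EIF2AK3 per EIF2AK4, of which neither gene was called, the ratio was 0.0946 in control and 0.107 in knockdown. EIF2AK1 per EIF2AK4 was 2.09 in control and 1.82 in knockdown. EIF2AK2 per EIF2AK3 was 3.50 in control and 12.7 in knockdown, the widest difference of the 3 kinase pairs. ATF4 per EIF2S1, the gene of the eIF2 subunit that the kinases phosphorylate, was 0.63 log2 units higher in knockdown. In that pair EIF2S1 fell by 0.69 on the log2 scale while ATF4 was not called.

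**Figure D3:**
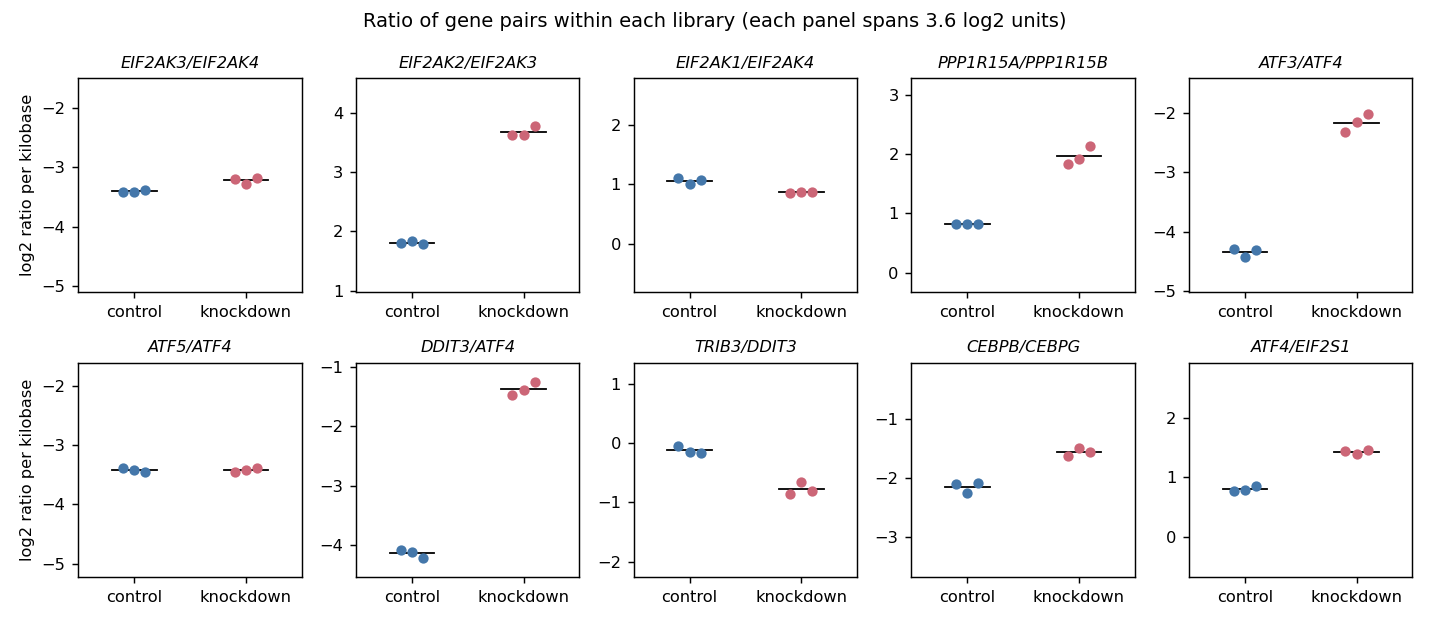
Log2 ratio of the level per kilobase of 10 gene pairs in each library (1 point per library, replicates 1 to 3 from left to right, line at the mean of 3); every panel spans the same distance on the vertical axis. DDIT3 per ATF4, ATF3 per ATF4 and EIF2AK2 per EIF2AK3 show the widest gaps between control and knockdown. ATF5 per ATF4 shows none, though the count of ATF5 is uncertain.

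The other kinases of eIF2, EIF2AK2 and EIF2AK1, were each called, as were 61.6% of all tested genes. Both lie in bin 5 by mean level, where 26.7% of all genes were called higher and 60.3% lower. EIF2AK2 (PKR), which is activated by viral-type RNA and is itself induced by interferon, rose from 74.1, 79.9 and 78.1 CPM to 300.1, 298 and 350.0, a log2 fold change of 2.03 ± 0.05 (SE; edgeR, adjusted p = 2.13e-18). In knockdown it reached 29.4 ± 2.72 RPKM (mean ± SD, n = 3), above EIF2AK4, from 7.19 ± 0.275 in control, where it was below. EIF2AK1 (HRI), which senses heme and mitochondrial stress, fell by 0.21 on the log2 scale and was not called with library size alone (-0.06). Of the 10 genes 1, ATF5, and in addition EIF2AK2 have a RefSeq window that holds the core of the interferon-stimulated response element, searched on both strands, as have 4.38% of all genes (3.57% of windows). The match in EIF2AK2 is shown in capitals with the bases around it.
EIF2AK2, chr2:37156967-37156996, minus strand, response element in capitals: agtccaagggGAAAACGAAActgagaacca

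By the root mean square difference of centred log2 CPM over the 6 libraries, genes near to DDIT3 among 12368 ranked included IFI16 (0.0756) and GBP3 (0.0767), both known as interferon-induced. IFI16 went from 5.21 ± 0.152 to 31.4 ± 3.65 CPM (mean ± SD, n = 3). With 2 groups, this distance depends largely on the size of the change. IFI16 and GBP3 had log2 fold changes of 2.59 and 2.78, beside 2.71 for DDIT3. ASNS, DDIT4 and CHAC1, known as targets of ATF4 or DDIT3, had similar changes (2.75, 2.57 and 2.56). The part of interferon signalling in the changes of the 10 genes was not tested. The genes nearest to ATF4 were SLC38A10, NFU1 and UGP2, with differences of 0.0177 to 0.0181 and a log2 fold change between -0.06 and -0.03.

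All 8 genes for eIF2 and its exchange factor eIF2B were called, 3 higher and 5 lower, with a median log2 fold change of -0.13 that turned to 0.03 with library size alone. All 8 lie in bins 4 and 5 by mean level, where 45.8% and 60.3% of all genes were called lower and 32.3% and 26.7% higher, so these counts are near the background. EIF2S1 fell from 437 ± 6.51 to 270.4 ± 2.31 CPM (mean ± SD, n = 3), and EIF2B3 fell by 0.48 on the log2 scale. EIF2S3 rose by 0.31 and EIF2B2 by 0.22. Of the exonic bases of EIF2B2, 23.6% also belong to unnamed genes. Of the 4 phosphatase partners, 3 fell and 0 rose in the edgeR fit, as also at an unadjusted p under 0.05 (0 rose) and with DESeq2 (0 rose). All 4 lie in bin 5 by mean level, where 60.3% of all genes were called lower. The catalytic subunit genes PPP1CC and PPP1CA fell by 0.88 and 0.53 on the log2 scale. Of the exonic bases of PPP1CA, 26.9% also belong to CARNS1, RAD9A and TBC1D10C. PPP1R15B (75.8 ± 2.35 CPM in control, 78.2 ± 0.451 in knockdown) was not called except under library size alone (0.20) and upper-quartile factors (0.11).

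Of 8 activators and inhibitors of the kinases, 2 rose and 3 fell (median -0.07, or 0.09 with library size alone). Over all tested genes, 30.7% were called higher and 30.9% lower, so these counts are near the background. DNAJC3, an inhibitor of EIF2AK2 and EIF2AK3, rose by 0.51 on the log2 scale. GCN1, which couples stalled ribosomes to EIF2AK4, fell by 0.46, and TARBP2, which restrains EIF2AK2, fell by 0.24. DELE1, which carries mitochondrial stress to EIF2AK1, was called at 0.12 (edgeR, adjusted p = 0.0486). The count of this list called higher was 1 in 9 of 13 alternatives.

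Of 13 tested genes for other ATF, CREB, C/EBP and Tribbles proteins, 9 rose and 2 fell (median 0.43). The shares over all tested genes were 30.7% higher and 30.9% lower. XBP1, a factor of the unfolded protein response, rose by 1.44 and JDP2, a bZIP repressor, by 1.14 on the log2 scale. ATF1 and ATF7 both fell by 0.36. Of the exonic bases of ATF7, 43.8% also belong to ATF7-NPFF and unnamed genes. TRIB2, a paralog of TRIB3, did not pass the filter.

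Genes known as targets of ATF4 and DDIT3 follow. Of all tested genes, 30.7% were called higher, 30.9% lower and 9.16% at least 2-fold higher. Of 17 stress effectors, 14 rose and 3 fell (median 0.97), and 8 rose by at least 2-fold. DDIT4, an inhibitor of mTORC1, rose by 2.57 and CHAC1, which degrades glutathione, by 2.56 on the log2 scale, beside 2.71 for DDIT3. Of the exonic bases of DDIT4, 41.2% also belong to DDIT4-AS1. EIF4EBP1, a translation repressor, fell by 0.34 and VLDLR, a lipoprotein receptor, by 0.27. NUPR1, a stress-induced chromatin protein singled out after its values were seen, had the largest log2 fold change of the list at 3.89 ± 0.43 (SE), from 2 to 8 counts per control library to 42 to 82 per knockdown library. Of 8 amino acid transporter genes, 7 rose and 0 fell in the edgeR fit, as also at an unadjusted p under 0.05 (0 fell) and with DESeq2 (0 fell) (median 0.62). The cystine transporter SLC7A11 rose by 3.03 and the neutral amino acid transporter SLC1A4 by 1.17 on the log2 scale.

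Of 12 genes of amino acid and one-carbon synthesis, 8 rose and 3 fell (median 0.72), beside 30.7% and 30.9% of all tested genes. Asparagine synthetase ASNS, which shares 44.6% of its exonic bases with an unnamed gene, rose by 2.75 on the log2 scale. The folate enzyme ALDH1L2 rose from 6.79 ± 0.527 to 33.8 ± 4.81 CPM (mean ± SD, n = 3). PSPH and MTHFD2, which ATF4 is known to raise, fell by 1.56 and 0.89 on the log2 scale. Of the exonic bases of MTHFD2, 33.2% also belong to SLC4A5 and an unnamed gene. Of 13 genes for transfer RNA synthetases and export, 9 rose and 2 fell (median 0.23), beside the same shares of all tested genes. All 13 lie in bin 5 by mean level, where 26.7% of all genes were called higher and 60.3% lower. CARS1 rose by 1.08 and AARS1 by 0.71, and EPRS1 fell by 0.09. The count of this list called lower was 0 without control replicate 1, control replicate 2 or knockdown replicate 2, and also with library size alone or upper-quartile factors. TGATGNAA was in a RefSeq window of 7 of the 11 genes of that list with a window and of 4 of 7 transporter genes, beside 1 of 7 synthesis genes, 1 of 13 stress effectors and 4.46% of all genes. The lists hold genes already known as ATF4 targets, so these shares are no test of ATF4 in these cells. The matches include SLC7A1 and NARS1, which were not called.

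Of 15 targets of ATF6 and XBP1 in the unfolded protein response, 10 rose and 2 fell (median 0.29). HERPUD1, of the degradation machinery of the endoplasmic reticulum, rose by 1.76 and the chaperone HSPA5 (BiP) by 1.00 on the log2 scale. HYOU1, another chaperone, fell by 0.31 and SYVN1, a ubiquitin ligase, by 0.20. The difference between the lists was not tested. The lists are described by their counts and medians beside the 30.7% of all tested genes called higher, the 30.9% called lower and their median of 0.03.

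**Figure D4:**
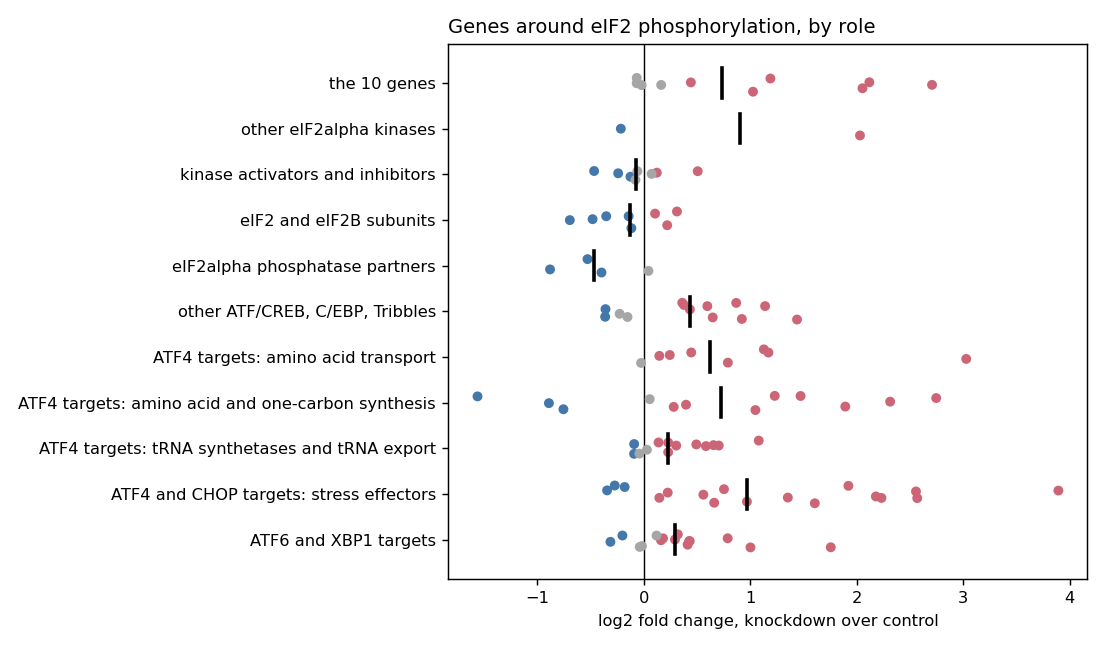
Log2 fold change (knockdown over control) of every tested gene in each list, with 1 point per gene, red for called higher, blue for called lower and grey for not called; black bars are list medians and vertical scatter is only for display. Stress effectors have the highest median of the lists of targets at 0.97, phosphatase partners the lowest of all at -0.46, and the synthesis list spreads from PSPH at -1.56 to ASNS at 2.75.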

How the data were processed

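The values used are the raw read counts per Ensembl gene that the authors deposited, a single table for the 6 libraries. The submitters' processing notes list hg38, featureCounts 2.0.1, STAR 2.7.0d, Trim Galore 0.6.6 and DESeq2 1.30.1, without roles. Counting settings, strand and annotation: not given in the sources used here.

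In R 4.3.3, edgeR 4.0.16 was used to remove low counts (filterByExpr, minimum count 10), to scale by TMM and to run the quasi-likelihood test (robust option). Benjamini-Hochberg adjustment ran over 17223 genes. SEs and 95% intervals come from the test statistic. On simulated counts (16878 genes tested), the test called 80 of 97 genes simulated with a change of 1 on the log2 scale, 63 of 100 with 0.5, and 7 of 16681 with none. That check was set to accept no fewer than 80 calls among the genes with a change of 1. The simulation changed a small share of genes, as many up as down, while 61.6% of genes were called in the data. These rates may therefore not carry over to the data. The common biological coefficient of variation was 4.67%. Log2 CPM used a prior count of 2, and pair ratios added 0.5 to each count. Lengths, coordinates and shared exonic bases came from GENCODE 29.

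The members and lists were chosen with earlier results of these data known. Named genes are the 10 members, those of the pairs, up to 2 rises and 2 falls per list (called, groups not overlapping, mean log2 CPM 1 or more), and the 3 nearest in pattern to ATF4 and DDIT3, of which 1 is not reported here. Alternatives were other scalings, no filter, DESeq2 1.42.0, a replicate block, thinning to the smallest library and leaving out each library.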

Additional observations from a re-analysis of the deposited data

How the results depend on the processing

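DDIT3, ATF3, TRIB3, PPP1R15A, CEBPB and CEBPG were called higher in each of 13 alternatives. With library size alone, log2 fold changes were 0.0896 for ATF4 (adjusted p = 0.0145, edgeR), 0.0895 for ATF5, 0.32 for EIF2AK3, 0.14 for EIF2AK4, -0.06 for EIF2AK1 and 0.20 for PPP1R15B; medians were 0.89 (the 10 genes), 1.06 (other kinases), 0.0860 (activators and inhibitors), 0.0263 (eIF2 and eIF2B), -0.31 (phosphatase partners), 0.59 (other ATF, CREB, C/EBP and Tribbles), 0.77 (transport), 0.88 (synthesis), 0.38 (transfer RNA), 1.12 (effectors) and 0.45 (ATF6 and XBP1 targets). Called lower there were 0 other kinases, 1 activator or inhibitor, 3 eIF2 and eIF2B, 0 transfer RNA, 1 effector and 1 ATF6 and XBP1 target gene, and 1 phosphatase partner was higher. With upper-quartile factors, EIF2AK4 was 0.0418 and PPP1R15B 0.11; medians were 0.80 (the 10), -0.0672 (eIF2 and eIF2B), -0.40 (phosphatase), 0.49 (other ATF and related) and 0.35 (ATF6 and XBP1), with 3, 0 and 1 genes called lower in the eIF2, transfer RNA and ATF6 and XBP1 lists and 1 phosphatase partner higher. DESeq2 gave -0.0894 for ATF4, hence 1 of the 10 lower, and medians of -0.15 (eIF2 and eIF2B) and 0.38 (other ATF and related; 0.39 with no filter). Activators and inhibitors called higher fell to 1 with RLE factors, no filter, DESeq2 and the replicate block. The labels do not say whether same-numbered libraries were paired. Correlations of their deviations from the group means were -0.000751, -0.00642 and -0.0235. Those of differently numbered libraries ran from -0.0120 to 0.0178, so these values cannot show how the libraries were prepared. The replicate block called 5214 genes higher and 5263 lower and the 6 genes higher. Leaving out 1 library at a time, ATF4 ranged from -0.0951 to -0.0366 (adjusted p = 0.0377 without control replicate 1 and without knockdown replicate 3, edgeR), the 10 genes called lower from 0 to 1, activators and inhibitors called higher from 1 to 2, transfer RNA genes called lower from 0 to 2, and the medians from -0.15 to -0.12 (eIF2 and eIF2B) and 0.40 to 0.47 (other ATF and related). The log2 ratio of ATF5 to ATF4 ranged from -0.0209 to 0.0194 and turned positive without control replicate 1 (0.0170), control replicate 2 (0.00246) and knockdown replicate 1 (0.0194). The cause of these shifts was not tested. EIF2AK3, at 311 to 365 counts per library, had the widest SE of the 10 genes.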
